A study of Homo sapiens with 12 samples.

Results

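The 10 genes described here encode factors that cut the 3' end of nascent mRNA or end transcription behind it: CSTF1, CSTF2, CSTF2T, CSTF3, PCF11, CPSF1, CPSF6, NUDT21, PPP1R10 and XRN2. They are 10 of the 60666 human gene rows of the deposited count table, found by gene name, and each name matched 1 row. The set was chosen with measured values in view: CSTF1 and PPP1R10 were selected on their steep fall under auxin, so their values under auxin are a description with no test. The other 8 were taken as their relatives in the pathway and were tested.

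Read counts came from poly(A)-selected RNA of DLD-1, a human colorectal adenocarcinoma line. All cells, the 0 h groups included, constitutively express the plant receptor OsTIR1 and carry an auxin-inducible degron (AID) on SPT6 (genotype SPT6-AID OsTIR1) or on PAF1 (genotype PAF1-AID OsTIR1). SPT6 handles histones for transcribing RNA polymerase II, and PAF1 is a subunit of an elongation complex. With auxin, OsTIR1 marks the tagged protein for destruction. There were 12 libraries in 6 groups of 2: each line after 0, 2 or 6 h in 500 µM auxin, numbered 1 and 2 in the SPT6-AID line and 3 and 4 in the PAF1-AID line. Separate cultures are not named in the labels. The p-values therefore rest on how much these libraries vary, and that variation may be technical. They name no auxin-treated cells without a tag, so loss of the tagged protein and auxin itself cannot be told apart. Whether each line is 1 clone is not given in the sources used here.

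At the 3' end of a gene, the cleavage and polyadenylation specificity factor (CPSF) finds the polyadenylation signal, the cleavage stimulation factor (CSTF) binds downstream of it, and cleavage factors I and II assist in choosing and cutting the site. After cutting, an exonuclease degrades the RNA still held by RNA polymerase II, and a phosphatase bound to the polymerase slows it down, which together release it from DNA. The mRNAs of these factors are themselves made by RNA polymerase II, and only mRNA was measured here.

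The RNA of each tagged gene was higher in its own line. SUPT6H, which encodes SPT6, had 496 to 557 per-million counts (CPM) in the 6 SPT6-AID libraries and 261 to 374 in the 6 PAF1-AID libraries, and PAF1 had 52.3 to 75.8 and 116 to 131. The degron acts on protein, which these counts do not show. Total counts per library ran from 31957953 to 115904780. Of 10 markers of intestinal epithelium, CDX1 was listed at 0 in all libraries, VIL1 had at most 11 reads and LGALS4 at most 35, while the other 7 (CDX2, EPCAM, KRT8, KRT18, KRT20, CDH1 and CDH17) had at least 2533 reads in each library. Summed over the list, the level was 3554 to 5903 CPM, against 1.49 to 4.12 CPM for 8 markers of leukocytes, fibroblasts and endothelium, of which COL1A2 was at 0 and CD3E and DCN had at most 1 read. The endothelial marker PECAM1, with 0 to 35 reads a library, was called higher at 6 h in SPT6-AID cells by edgeR. It may have passed the filter on low counts only through these libraries, so its call is a description. LGALS4 was called higher at 6 h in both lines and CDX2 in PAF1-AID cells. The part of these markers in the results was not tested. The PECAM1 call was kept without 10 of the 12 libraries, that of LGALS4 in SPT6-AID cells without 2, and that of CDX2 without 8. With fly reads as the library size, the calls of LGALS4 in SPT6-AID cells (edgeR adjusted p = 0.179) and of CDX2 (log2 fold change 0.38, edgeR adjusted p = 0.312) ended. In bulk RNA, fewer cells and less RNA per cell cannot be told apart.

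The stretches just upstream of 5 of the starts are shown because the results turn on these genes: CSTF1 and PPP1R10 were chosen on their levels under auxin, PCF11 was lower in both lines, and CSTF2T and CSTF2 are paralogues with different courses. They are read 5′ to 3′ on the gene's strand, with RefSeq starts on GRCh38.p14. The set of promoter windows used here covers 9 of the 10 genes and holds none for CPSF1. Capitals mark matches, on either strand, to 1 of 6 motifs: TATAAA (the TATA box), CCAAT (the CCAAT box), GGGCGG (the GC box), CCGGAAG (an ETS core), TGCGCA (found in NRF1 sites) and TTTGAA (found in TCF/LEF sites).
CSTF1 (chr20:56392338-56392383, plus strand): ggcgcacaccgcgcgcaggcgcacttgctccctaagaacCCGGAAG
PPP1R10 (chr6:30617244-30617343, minus strand): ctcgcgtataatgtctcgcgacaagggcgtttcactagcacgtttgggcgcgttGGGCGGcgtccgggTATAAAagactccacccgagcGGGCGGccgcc
PCF11 (chr11:83157031-83157130, plus strand): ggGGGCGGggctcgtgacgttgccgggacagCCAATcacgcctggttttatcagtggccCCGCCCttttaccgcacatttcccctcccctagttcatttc
CSTF2 (chrX:100820291-100820390, plus strand): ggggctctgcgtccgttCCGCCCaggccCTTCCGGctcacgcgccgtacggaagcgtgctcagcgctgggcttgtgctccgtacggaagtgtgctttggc
CSTF2T (chr10:51699596-51699695, minus strand): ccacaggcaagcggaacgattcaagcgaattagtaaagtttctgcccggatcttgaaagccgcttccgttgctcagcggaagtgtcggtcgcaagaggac

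The 4 longer stretches end at the base before the RefSeq start. The outermost starts in the GENCODE annotation, used for the gene spans and distances between genes given below, can differ from these. The stretches of PPP1R10 and PCF11 lie inside the GENCODE spans of these genes, and those of CSTF1 and CSTF2 partly inside. The CSTF1 stretch runs from the annotated start of AURKA on the other strand to just past the RefSeq start of CSTF1, so that its CCGGAAG is complete. In the full windows, which run from 250 bases before to 50 bases after a start, PPP1R10 was the only one of these 9 genes with a TATAAA, 32 bases upstream, a motif held by 11.5% of all 35116 windows. PPP1R10 also had 3 matches to GGGCGG (in 45.0% of windows) and 2 to CCAAT (34.6%). CSTF1, CSTF2, CSTF3 and NUDT21 had at least 1 CCGGAAG (10.3%), while only CSTF1 had TGCGCA (8.24%), at its second RefSeq start, and only CSTF1 and CSTF2 had TTTGAA (15.2%). None of the 6 motifs was found in the windows of CSTF2T and XRN2. A match is a string of letters and was not tested for binding.

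Before auxin the 10 mRNAs differed widely in level. Per kilobase of the deposited transcript length, in SPT6-AID cells at 0 h, XRN2 stood highest with 71.9 ± 5.84 CPM per kb (SD, n = 2), followed by NUDT21 (37.6 ± 4.87). CSTF1 stood lowest with 5.78 ± 0.0078 CPM per kb, below PCF11 (8.67 ± 0.846). Between them, CSTF2 and CPSF1 overlapped within 1 SD, as did each neighbouring pair in the run PPP1R10, CSTF3, CPSF6 and CSTF2T, while the other steps were larger than 1 SD. CSTF1 was the lowest of the 10 by its mean in all 6 groups, and XRN2 the highest by its mean in all 6. In the 3 PAF1-AID libraries numbered 3, however, XRN2 lay below NUDT21.

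The lines did not differ detectably at 0 h: by edgeR's quasi-likelihood test with Benjamini-Hochberg adjustment over 20791 genes, 0 of the 10 passed the threshold of 0.05, against 0.0337% of all genes in either direction. By the same test 0 of the 10 had an unadjusted p under 0.05, and DESeq2 and limma-voom also called 0. The largest difference among them was in XRN2 (log2 difference of PAF1-AID over SPT6-AID -0.46 ± 0.49, SE).

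**Figure D1:**
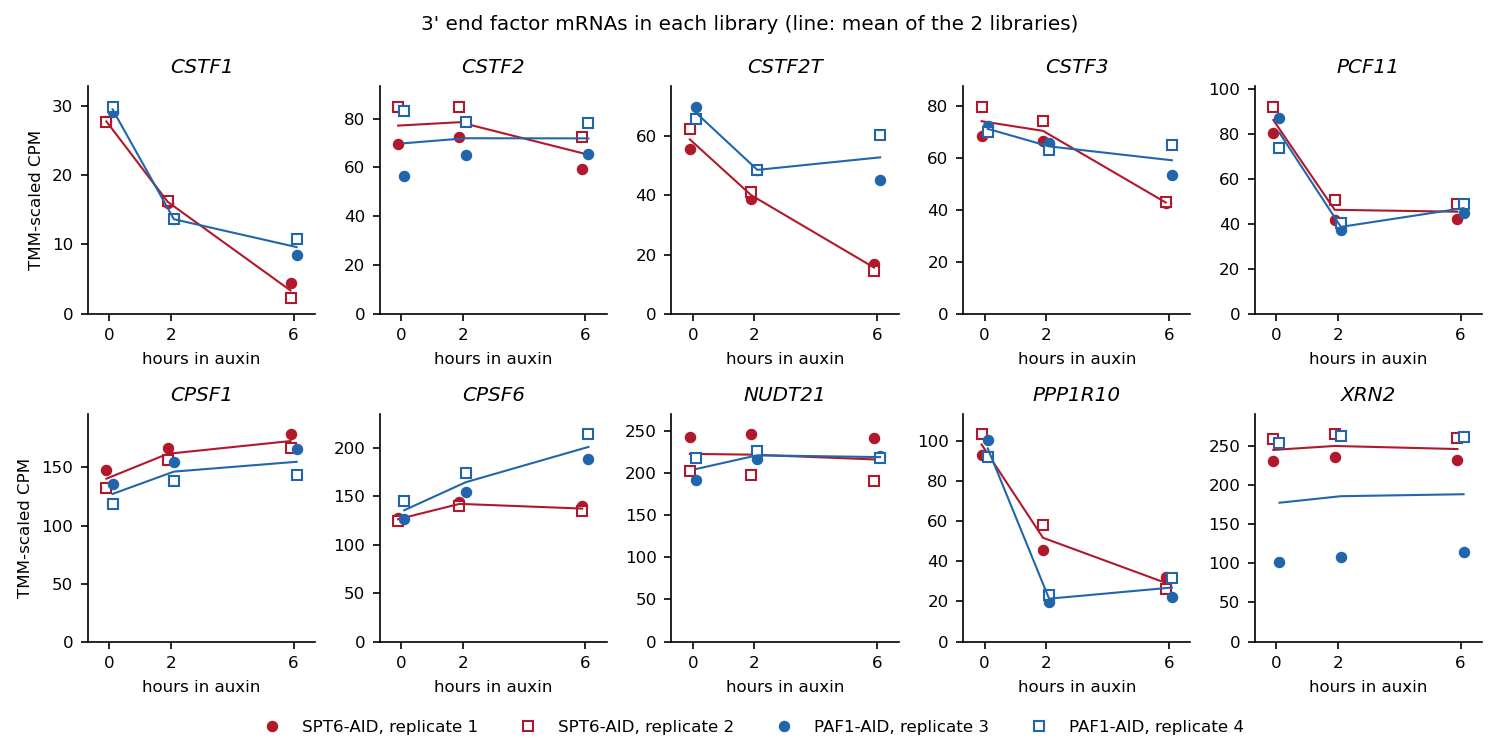
Level of each of the 10 mRNAs in CPM (scaled by edgeR's TMM) against hours in auxin, with 1 point per library and lines through the means of 2 libraries. CSTF1 and PPP1R10 are lower with auxin in both lines, CSTF2T lies at 14.3 to 16.9 CPM in SPT6-AID cells at 6 h, and the PAF1-AID libraries numbered 3 hold XRN2 at 102 to 115 CPM.

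CSTF1 encodes the WD-repeat subunit of CSTF and is a gene of up to 6 exons at chr20:56392371-56406369 (GRCh38, GENCODE 29, plus strand). In SPT6-AID cells its level was 27.7 CPM in both libraries at 0 h, 16.0 and 16.3 at 2 h, and 4.46 and 2.27 at 6 h. In PAF1-AID cells it was 29.1 and 29.8 CPM at 0 h, 13.6 in both libraries at 2 h, and 8.43 and 10.8 at 6 h. In each line every auxin library was below every 0 h library and the groups did not overlap. The means stood at 58.2% and 12.1% of the 0 h mean after 2 and 6 h in SPT6-AID cells, and at 46.3% and 32.6% in PAF1-AID cells.

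On the log2 scale of the fitted model, CSTF1 differed from 0 h by -0.78 ± 0.25 (SE) at 2 h and -3.02 ± 0.27 at 6 h in SPT6-AID cells, and by -1.11 ± 0.25 and -1.62 ± 0.25 in PAF1-AID cells. From 2 to 6 h the difference was -2.24 ± 0.26 in SPT6-AID and -0.50 ± 0.25 in PAF1-AID cells. The value at 6 h in SPT6-AID cells rests on 205 and 65 reads, and leaving out single libraries moved it between -3.57 and -2.63. These values chose the gene and carry no test.

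PPP1R10, also called PNUTS, encodes the subunit that brings protein phosphatase 1 to the elongating polymerase; it lies at chr6:30600400-30618612 on the minus strand, with up to 20 exons. Its level in SPT6-AID cells was 93.1 and 103 CPM at 0 h, 45.4 and 57.9 at 2 h, and 32.1 and 26.3 at 6 h. In PAF1-AID cells it was 100.2 and 92.1 CPM at 0 h, 19.5 and 23.2 at 2 h, and 21.9 and 31.8 at 6 h. No auxin library reached the 0 h range of its line.

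The time courses of PPP1R10 and CSTF1 were unlike. In PAF1-AID cells PPP1R10 stood at 22.2% of its 0 h mean by 2 h and at 28.0% at 6 h, whereas in SPT6-AID cells it stood at 52.7% and then 29.8%. The fitted log2 differences from 0 h were -2.17 ± 0.21 (SE) and -1.84 ± 0.20 in PAF1-AID cells and -0.92 ± 0.20 and -1.75 ± 0.20 in SPT6-AID cells. By these values PPP1R10 was the lower in PAF1-AID cells at 2 h and about equal in both lines at 6 h, while CSTF1 was the lower in SPT6-AID cells at 6 h. Of the 8 other factors, PCF11 stood lowest as a percentage of 0 h, at 48.0% to 58.4%, in each auxin group but SPT6-AID at 6 h, where CSTF2T stood at 26.5%.

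**Figure D2:**
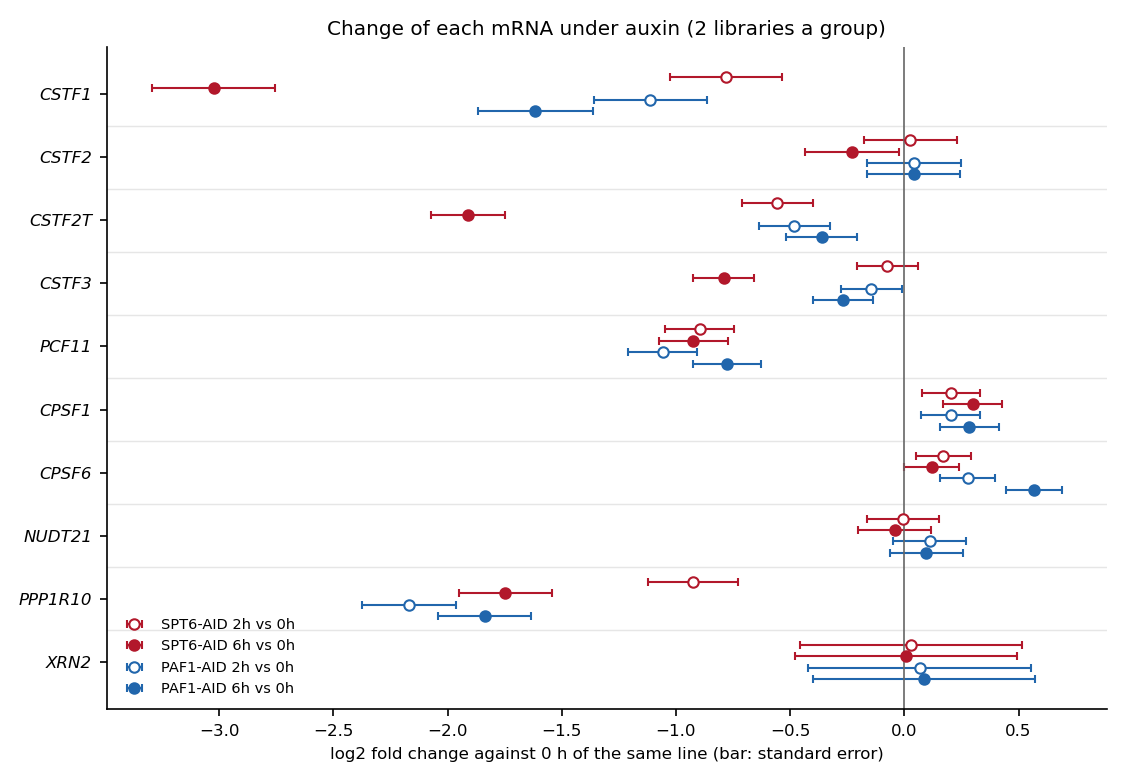
Log2 fold change of each mRNA against 0 h of its own line at 2 h (open) and 6 h (filled), with bars of 1 SE from the model fitted over 12 libraries. CSTF1 reaches -3.02 in SPT6-AID cells at 6 h, PCF11 lies between -1.06 and -0.78 in all 4 comparisons, and the bars of XRN2 are the widest.

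Of the 8 tested genes, PCF11 alone was called lower at 2 h in both lines by edgeR's quasi-likelihood test. It encodes a subunit of cleavage factor II that also binds the polymerase tail, at chr11:83156988-83187451 on the plus strand. It had 80.3 and 92.2 CPM at 0 h in SPT6-AID cells, 41.7 and 50.9 at 2 h, and 42.1 and 48.8 at 6 h. The PAF1-AID libraries held 87.1 and 74.0 CPM at 0 h, 37.1 and 40.3 at 2 h, and 45.0 and 49.1 at 6 h. The auxin and 0 h libraries of a line did not overlap. In SPT6-AID cells the 2 h and 6 h libraries overlapped, while in PAF1-AID cells both 6 h libraries lay above both 2 h ones.

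The log2 fold change of PCF11 at 2 h was -0.90 ± 0.15 (SE) in SPT6-AID cells, with an adjusted p of 0.0372 by edgeR's quasi-likelihood test (Benjamini-Hochberg). It was the only one of the 8 called there, against 0.462% of all genes called lower. In PAF1-AID cells at 2 h it was -1.06 ± 0.15 (edgeR adjusted p = 0.0361), again the only one of 8, against 0.0818% of all genes called lower. Both 2 h calls ended when any 1 of 10 libraries was left out, that is, any library other than the 2 SPT6-AID libraries at 6 h, with edgeR adjusted p up to 0.350 and 0.390 and fold changes of -1.05 to -0.76 and -1.16 to -0.94. They also ended with fly reads as the library size (edgeR adjusted p = 0.0808 and 0.104) and with each line fitted alone (0.294 and 0.0886). Both were kept with the library number added to the model, called the replicate block (edgeR adjusted p = 1.2e-05 and 6.9e-06). What a number stands for is not labelled.

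No further fall of PCF11 was detected after 2 h. Its log2 difference between 6 and 2 h was -0.03 ± 0.15 in SPT6-AID cells (edgeR adjusted p = 0.933) and 0.28 ± 0.15 in PAF1-AID cells (edgeR adjusted p = 0.465). The replicate block called PCF11 higher at 6 than at 2 h in PAF1-AID cells (0.28, edgeR adjusted p = 0.0477). Against 0 h the fall at 6 h was -0.92 ± 0.15 in SPT6-AID cells (edgeR adjusted p = 0.0016), a call kept without each of the 12 libraries. In PAF1-AID cells it was -0.78 ± 0.15 (edgeR adjusted p = 0.0104), and the call was lost without the PAF1-AID 0 h replicate 3 (adjusted p = 0.0725) or 6 h replicate 3 (0.122). Between the lines the response of PCF11 differed by 0.16 ± 0.21 at 2 h (edgeR adjusted p = 1.00) and -0.15 ± 0.21 at 6 h (edgeR adjusted p = 0.857).

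CSTF2T was called lower in SPT6-AID cells at 6 h. It encodes a variant of the RNA-binding subunit CSTF2 and has a single exon (chr10:51695487-51699591, minus strand), so it is a gene without introns, unlike its paralogue CSTF2 on chromosome X with up to 15 exons. How reads that match both genes were counted is not given in the sources used here. Its SPT6-AID libraries held 55.5 and 62.2 CPM at 0 h, 38.9 and 41.2 at 2 h, and 16.9 and 14.3 at 6 h. In PAF1-AID cells they held 69.9 and 65.8 at 0 h, 48.5 and 48.6 at 2 h, and 45.2 and 60.4 at 6 h. The groups of SPT6-AID cells were separate at each step. In PAF1-AID cells all auxin libraries lay below both 0 h libraries, and the 6 h libraries spread around the 2 h ones.

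At 2 h the log2 fold change of CSTF2T was -0.56 ± 0.16 (SE) in SPT6-AID and -0.48 ± 0.16 in PAF1-AID cells (edgeR adjusted p = 0.196 and 0.405). With the replicate block it was called lower at 2 h in both lines (edgeR adjusted p = 0.0048 and 0.0168). For CSTF2T at 6 h in SPT6-AID cells the log2 fold change was -1.91 ± 0.16 (edgeR adjusted p = 0.0001). In PAF1-AID cells it was -0.36 ± 0.15 (edgeR adjusted p = 0.172), and -0.37 with the replicate block (edgeR adjusted p = 0.0182). The difference between the responses was -1.55 ± 0.22 (edgeR adjusted p = 0.0121), with both SPT6-AID libraries below both PAF1-AID libraries as a percentage of 0 h. CSTF2T was 1 of 8 called for this difference, against 3.12% of all genes called lower. The call for the difference was lost without the PAF1-AID 0 h replicate 3 (adjusted p = 0.0564), the PAF1-AID 6 h replicate 4 (0.0577) or the SPT6-AID 0 h replicate 2 (0.0507), and with fly reads as the library size (-1.58, adjusted p = 0.102).

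CSTF3, the scaffold subunit that joins the CSTF complex together (chr11:33077188-33162371, minus strand), was the third gene called at 6 h in SPT6-AID cells. It had 68.7 and 79.8 CPM at 0 h, 66.7 and 74.3 at 2 h, and 42.6 and 43.2 at 6 h, so that only the 6 h libraries stood apart. The log2 fold change was -0.79 ± 0.13 (SE; edgeR adjusted p = 0.0019). In PAF1-AID cells CSTF3 stood at 83.0% of 0 h after 6 h (log2 fold change -0.27 ± 0.13, edgeR adjusted p = 0.236). With fly reads as the library size these values were -0.66 and 0.0387. The difference between the responses was -0.52 ± 0.19 (edgeR adjusted p = 0.178). Adding the replicate block gave -0.27 for the PAF1-AID change and -0.51 for the difference (edgeR adjusted p = 0.0321 and 0.0110).

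With CSTF2T, CSTF3 and PCF11, 3 of the 8 genes were called lower in SPT6-AID cells at 6 h, against 16.4% of all genes, and 0 were called higher by edgeR, against 8.76%. Among those above 0 h, CPSF1 alone had an unadjusted p under 0.05, and DESeq2 and limma-voom also called 0 higher. The median log2 fold change of the 8 was -0.14, beside 0.04 over all genes. From 2 to 6 h, CSTF2T (-1.36 ± 0.16, edgeR adjusted p = 0.0011) and CSTF3 (-0.72 ± 0.13, edgeR adjusted p = 0.0063) fell further, 2 of 8 against 10.4% of all genes called lower. The CSTF3 call from 2 to 6 h was lost without the SPT6-AID 2 h replicate 2 (adjusted p = 0.0682).

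CSTF2, the canonical RNA-binding subunit, was called in no comparison by edgeR's main test. With fly reads as the library size it was called lower in SPT6-AID cells at 6 h against 0 h (log2 fold change -0.68, edgeR adjusted p = 0.0147). There it was also called lower at 6 h against 2 h (-0.57, edgeR adjusted p = 0.0481). With the replicate block its log2 fold changes in these comparisons were -0.23 and -0.26 (edgeR adjusted p = 0.0400 and 0.0282). Its level was 69.4 and 84.9 CPM at 0 h in SPT6-AID cells and 59.2 and 72.5 at 6 h, and in PAF1-AID cells 56.6 and 83.2 at 0 h and 65.6 and 78.2 at 6 h, with overlap in both lines. With each gene taken per kilobase, CSTF1 made up 8.35% to 9.73% of the summed CSTF1, CSTF2, CSTF2T and CSTF3 level in SPT6-AID cells at 0 h and 1.19% to 2.59% at 6 h. In PAF1-AID cells its share was 9.19% to 10.2% at 0 h and 3.65% to 3.78% at 6 h. The share of CSTF2T in CSTF2 plus CSTF2T was 33.1% to 35.1% at 0 h and 11.8% to 16.2% at 6 h in SPT6-AID cells, and 34.8% to 45.5% and 31.7% to 34.3% in PAF1-AID cells. These are shares of mRNA.

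CPSF6 rose in PAF1-AID cells. It encodes the larger subunit of cleavage factor I, which acts with NUDT21 in the choice of polyadenylation site. It had 126 and 145 CPM at 0 h in PAF1-AID cells, 154 and 174 at 2 h, and 188 and 214 at 6 h, with no overlap between times. The log2 fold change at 6 h was 0.57 ± 0.12 (SE; edgeR adjusted p = 0.0156), 1 of 8 genes called higher against 4.2% of all genes. PCF11 was the 1 of 8 called lower, against 6.7%.

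The call of CPSF6 did not hold with another scaling. With the fly reads in each library as its size, its log2 fold change was 0.19 (edgeR adjusted p = 0.473), where the same scaling moved the median of all genes from 0.02 to -0.37. The call was also lost without the PAF1-AID 0 h replicate 3 (adjusted p = 0.107), 6 h replicate 3 (0.0536) or 6 h replicate 4 (0.105). In SPT6-AID cells CPSF6 stood at 109% of 0 h at 6 h, and at 80.6% with the fly scaling. The difference between the responses was -0.45 ± 0.17 (edgeR adjusted p = 0.211). Adding the replicate block, this difference was called (-0.45, edgeR adjusted p = 0.0044). The block also called CPSF6 higher in PAF1-AID cells at 2 h (0.28, edgeR adjusted p = 0.0270) and 6 h (0.57, 1.4e-05). From 2 to 6 h it was called higher there as well (0.29, edgeR adjusted p = 0.0095).

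CPSF1, NUDT21 and XRN2 were not called under auxin by edgeR's quasi-likelihood test. CPSF1, the large scaffold subunit of CPSF on chromosome 8, ran from 133 to 148 CPM at 0 h and 167 to 178 at 6 h in SPT6-AID cells, and from 119 to 136 and 144 to 166 in PAF1-AID cells. Its 6 h libraries lay above the 0 h ones in both lines, but the differences on the log2 scale, 0.30 ± 0.13 and 0.28 ± 0.13, missed the threshold (edgeR adjusted p = 0.120 and 0.197; over genes with a mean of at least 1 CPM, the SPT6-AID value was 0.41 with an adjusted p of 0.0419), and with the fly scaling they were -0.13 and -0.12. NUDT21, the subunit of cleavage factor I that binds RNA, ran from 190.2 to 246 CPM over all 12 libraries, and its groups overlapped at every time in both lines.

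XRN2, the exonuclease that degrades the RNA behind the cut, stood apart in 1 series of libraries. It had 231 to 265 CPM in the 6 SPT6-AID libraries and 253, 263 and 262 CPM at 0, 2 and 6 h in the PAF1-AID libraries numbered 4. In the PAF1-AID libraries numbered 3 it had 102, 109 and 115 CPM at the same times. The log2 ratio of libraries 3 over 4 was -1.32, -1.28 and -1.19, on average -1.26, so the offset was present without auxin. The mean ratios of the other 9 factors lay between -0.36 and 0.19, with CSTF2 the lowest.

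Genes near XRN2 had other ratios. Within 2 Mb of its start, 9 other expressed genes had mean log2 ratios of libraries 3 over 4 from -0.26 to 1.0, the last being FOXA2. Of 13280 genes compared, 18 others had a mean ratio as low as that of XRN2 or lower. What sets these libraries apart was not tested. The standard error of XRN2 in the fit was 0.49 in each comparison with 0 h, against 0.12 to 0.20 for the other tested factors. This fit had no term for the library number, so the standard error includes the offset. Adding the replicate block, XRN2 changed by 0.03 and 0.007 at 2 and 6 h in SPT6-AID cells. In PAF1-AID cells it changed by 0.07 and 0.11, and XRN2 was not called in either line. Without the libraries numbered 3 its log2 fold change in PAF1-AID cells was 0.06 at 2 h and 0.05 at 6 h.

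**Figure D3:**
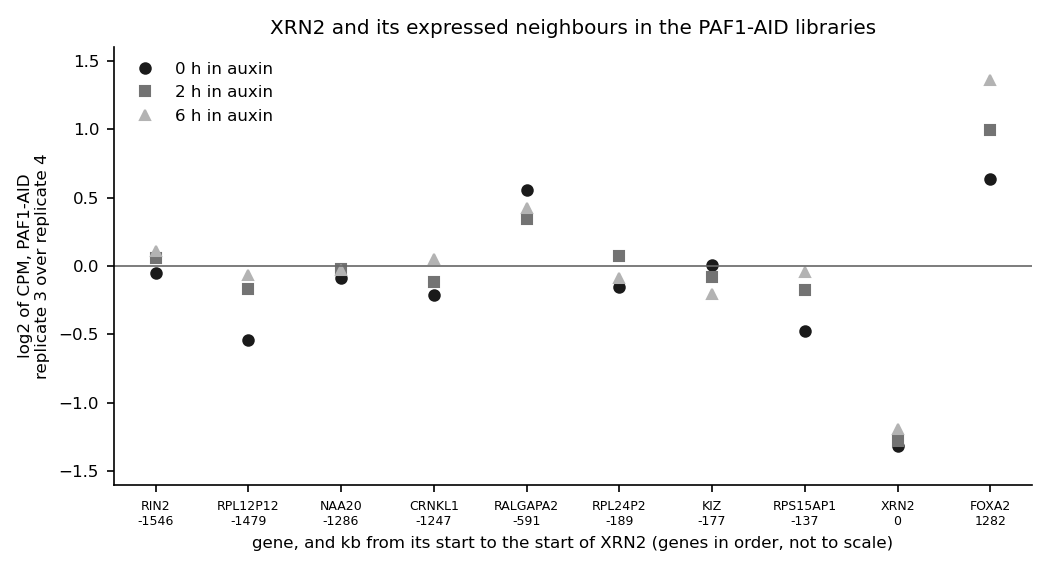
Log2 ratio of CPM in PAF1-AID replicate 3 over replicate 4 at 0, 2 and 6 h in auxin, for XRN2 and the 9 expressed genes within 2 Mb, in order along the chromosome with their distance in kb. XRN2 lies at -1.32 to -1.19 at all times, and the means of the other genes lie between -0.26 and 1.0.

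Comparisons in which edgeR's main test called none of the 8 genes were 6 against 2 h in PAF1-AID cells and the difference between the lines' responses at 2 h. In the first, edgeR's quasi-likelihood test called 0 of 8 against 0.875% of all genes in either direction, with 1 gene (CPSF6) at an unadjusted p under 0.05. In the second it called 0 of 8 against 0.0337%, with 0 at an unadjusted p under 0.05. DESeq2 and limma-voom also called 0 of 8 in both.

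Several of these genes start head to head with another gene. CSTF1 and AURKA, a mitotic kinase, are divergent with annotated starts 34 bases apart, so that the stretch printed for CSTF1 is also the sequence upstream of AURKA. AURKA had 105 and 143 CPM at 0 h in SPT6-AID cells, 88.4 and 121 at 2 h, and 34.3 and 39.4 at 6 h. In PAF1-AID cells it had 109 and 137, then 86.7 and 104, then 50.2 and 63.2 CPM. Like CSTF1, AURKA was lower in both lines at 6 h without overlap. At 2 h it was lower without overlap in PAF1-AID cells, and the SPT6-AID libraries overlapped those of 0 h. Its means at 2 h were 84.5% and 77.4% of 0 h where CSTF1 stood at 58.2% and 46.3%. The replicate block called AURKA lower at 2 h in PAF1-AID cells (log2 fold change -0.37, edgeR adjusted p = 0.0121).

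By edgeR's main test AURKA was not called at 2 h in either line. Its log2 fold change at 6 h was -1.75 ± 0.22 (SE) in SPT6-AID cells (edgeR adjusted p = 0.0004) and -1.12 ± 0.21 in PAF1-AID cells (edgeR adjusted p = 0.0100). The PAF1-AID call was lost without the 0 h replicate 4 (adjusted p = 0.0671) or the 6 h replicate 3 (0.117). PPP1R10 and MRPS18B, a mitochondrial ribosomal protein gene, overlap by 903 bases with the outermost GENCODE start of PPP1R10 (30618612). The RefSeq start of PPP1R10 (30617243), used for the printed stretch, lies short of the GENCODE start of MRPS18B (30617709). With that start the pair is divergent without overlap. MRPS18B stood at 54.7% of 0 h in SPT6-AID and 55.3% in PAF1-AID cells at 6 h, where PPP1R10 stood at 29.8% and 28.0%, and at 2 h at 90.4% and 84.3%.

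The fall of MRPS18B at 6 h was -0.87 ± 0.20 on the log2 scale in SPT6-AID cells (edgeR adjusted p = 0.0093) and -0.86 ± 0.20 in PAF1-AID cells (edgeR adjusted p = 0.0223). It was lost in SPT6-AID cells without the 0 h replicate 2 (adjusted p = 0.0588) or 6 h replicate 2 (0.0553), and in PAF1-AID cells without the 0 h replicate 4 (0.143) or 6 h replicate 3 (0.197). OGFOD1 overlaps NUDT21 by 709 bases with GENCODE starts. The RefSeq start of NUDT21 (56451332) lies short of the GENCODE start of OGFOD1 (56451490), and with it the pair is divergent without overlap. OGFOD1 stood at 79.8% of 0 h in SPT6-AID and 131% in PAF1-AID cells at 6 h, while NUDT21 stood at 97.1% and 107%. The strand setting of the counting is not given in the sources used here, so reads from any overlap could have been given to either gene of a pair. CSTF3 and XRN2 have noncoding partners under 1.2 CPM in every library, and that of CPSF1 was too low to be tested.

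**Figure D4:**
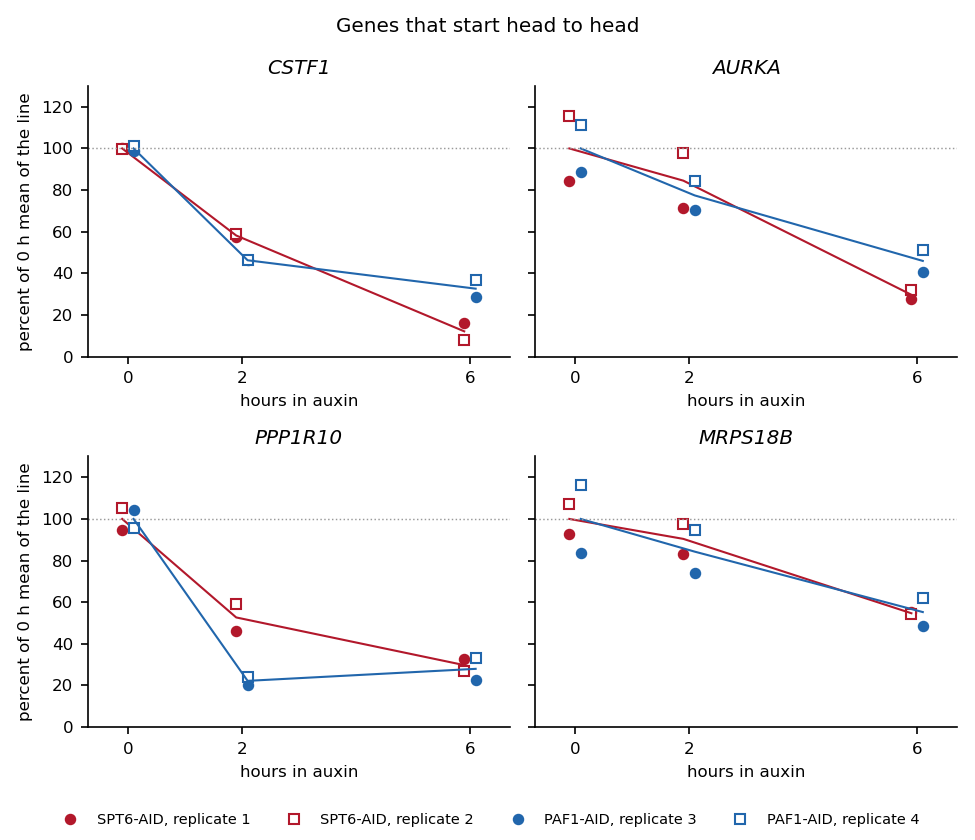
Level of CSTF1 and AURKA (top) and of PPP1R10 and MRPS18B (bottom) as a percentage of the 0 h mean of the same line, against hours in auxin, with 1 point per library and lines through the means. At 2 h the partners stand at 77.4% to 90.4% of 0 h, above CSTF1 (46.3% and 58.2%) and PPP1R10 (22.2% and 52.7%).

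The genes whose profile over the 12 libraries was most like that of CSTF1 were CCDC71, KLHL9, RPP38, PRMT6 and ZC2HC1A. Likeness was the root mean square difference of log2 CPM after centring each gene, over 13279 other genes. It was 0.15 for CCDC71 and 0.29 for ZC2HC1A, where the median gene had 1.09. CCDC71 had log2 fold changes of -0.87 and -3.15 at 2 and 6 h in SPT6-AID cells and -0.97 and -1.51 in PAF1-AID cells. For PPP1R10 the nearest were BCDIN3D, GTF2E1, ZNF485, ZC3H10 and WDR89, with differences from 0.24 to 0.38 against a median of 0.92. BCDIN3D had -0.98 and -1.67 in SPT6-AID cells and -1.62 and -1.56 in PAF1-AID cells. These genes were picked by likeness over the same libraries, so the nearness of their fold changes follows from the choice.

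Further genes of the pathway were read in 3 lists. In SPT6-AID cells at 6 h, 5 of 12 cleavage and polyadenylation genes were called lower (16.4% of all genes were) and 1 higher (8.76%), with a median log2 fold change of -0.24 beside 0.04 over all genes. Those called lower by edgeR were the poly(A) polymerase PAPOLG (-2.17 ± 0.18, SE), the CPSF subunits FIP1L1 (-1.29 ± 0.15), WDR33 (-1.22 ± 0.19) and CPSF2 (-0.43 ± 0.14), and CPSF7 (-0.95 ± 0.12), a paralogue of CPSF6. The 1 called higher was the poly(A)-binding protein gene PABPN1 (0.82 ± 0.27), a call that ended with the fly scaling (log2 fold change 0.41) and without 8 of the 12 libraries, while that of CPSF2 ended without 10.

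Of 16 genes for termination and the polymerase tail, 7 were called lower in SPT6-AID cells at 6 h, against 16.4% of all genes, with a median of -0.52 beside 0.04. Among them were WDR82 (-1.73 ± 0.19), which forms a complex with PPP1R10, and SCAF8 (-1.67 ± 0.13), which binds the polymerase tail. The catalytic subunit PPP1CC (-1.03 ± 0.14), RPRD2 (-1.16 ± 0.14), RPRD1B (-0.55 ± 0.14) and NKRF (-1.27 ± 0.17) were also called lower. The RPRD1B call was lost without the SPT6-AID 0 h replicate 1 (edgeR adjusted p = 0.0632), 0 h replicate 2 (0.0760) or 6 h replicate 2 (0.108), and with the line fitted alone (0.0774). Of 4 factors of the histone mRNA 3' end, ZNF473 (-1.58 ± 0.23), LSM11 (-1.24 ± 0.21) and SLBP (-0.78 ± 0.17) were called lower, against the same 16.4%, the last with an edgeR adjusted p of 0.0073.

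In PAF1-AID cells at 6 h the counts were smaller: 3 of 12, 4 of 16 and 1 of 4 lower, against 6.7% of all genes, and by edgeR 1 was called higher, SCAF4 (0.66 ± 0.15), against 4.2%. The SCAF4 call ended with fly reads as the library size (0.28, edgeR adjusted p = 0.411), and CLP1, a subunit of cleavage factor II, was called higher by DESeq2 (0.67, adjusted p = 0.0250) and limma-voom (0.68, adjusted p = 0.0483). The lower ones in termination included WDR82 (-1.29 ± 0.19), SCAF8 (-1.17 ± 0.13) and NKRF (-1.01 ± 0.17), and the histone factor called lower was LSM11 (-1.62 ± 0.21). The cleavage genes PAPOLG, CPSF2 and CPSF7 changed by -0.62, -0.51 and -0.45. These 3 calls, with edgeR adjusted p of 0.0415 to 0.0476, were each kept without at most 4 of the 12 libraries, and that of SCAF4 without 8. Over the 3 lists, 15 of 32 genes were called lower in SPT6-AID cells, against 16.4% of all genes, and 8 of 32 in PAF1-AID cells, against 6.7%, with medians of -0.52 and -0.04. At 2 h edgeR called 1 gene of the 3 lists, against 0.462% of all genes called lower in SPT6-AID cells: PAPOLG in that line (-1.01 ± 0.18, edgeR adjusted p = 0.0417), which lost its call without any 1 of 10 libraries, with edgeR adjusted p up to 0.286. DESeq2 also called ZNF473 (adjusted p = 0.0030) and LSM11 (0.0127) lower in SPT6-AID cells at 2 h, and LSM11 (0.0005) and NKRF (0.0097) lower in PAF1-AID cells.

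**Figure D5:**
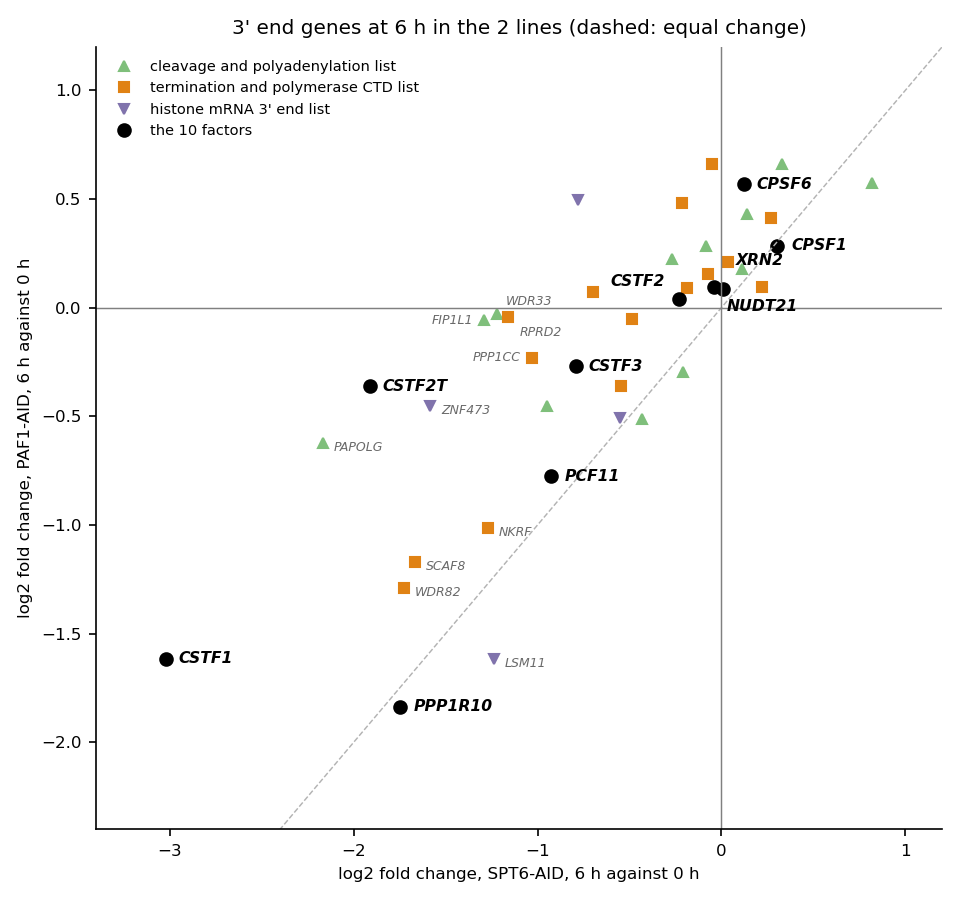
Log2 fold change at 6 h against 0 h in SPT6-AID cells (x axis) and PAF1-AID cells (y axis) for the 10 factors (black) and genes of the 3 lists (coloured by list), with the dashed line where both are equal. CSTF1 and CSTF2T lie left of the line, PPP1R10 and PCF11 near it, and CPSF6 above it.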

How the data were processed

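Poly(A)-selected RNA was sequenced from 12 libraries, 2 for each of 6 groups. Per the file header and its values, the authors deposited raw, unnormalized counts of reads for each human and fly gene. Per the submitters' processing notes, the tools were featureCounts 2.0.0, STAR 2.7.5 and cutadapt 1.14, and the genomes GRCh38 and BDGP6. The annotation release and strand setting are not given in the sources used here. Every value column was mapped to 1 library by its name. Fly reads were 3.94% to 6.25% of counts, and how the fly material was added is not stated.

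Human genes passing edgeR's filterByExpr (20791) were scaled by TMM and fitted with 6 group means over all 12 libraries, with 6 residual degrees of freedom (edgeR 4.0.16, R 4.3.3). Contrasts were tested by quasi-likelihood with Benjamini-Hochberg adjustment over all genes. Standard errors are the log2 fold change over the square root of F. No library was a copy of its replicate: the chi-square of their counts over its degrees of freedom was 34.1 to 63.1. The edgeR fit was checked on simulated counts. CPM is the per-million count after TMM scaling. The 10 factors, the pathway and marker lists and the motifs were chosen with earlier results of these data known. 1 list gene and 1 marker are counted in the list totals but not reported here by name. The named genes were the 10 factors, called genes of the lists, genes starting head to head within 1000 bases (GENCODE 29, matched by gene ID), and the 5 genes of mean log2 CPM of at least 1 most like CSTF1 and PPP1R10. Alternatives were DESeq2 1.42.0 size factors and its Wald test, limma-voom (limma 3.58.1), total counts, fly totals, other filters and prior count, each line alone, the replicate block, and leaving out each library; leaving out the 3 PAF1-AID libraries numbered 3 was chosen after seeing the data. A group reduced to 1 library this way took its spread from the other groups.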

Additional observations from a re-analysis of the deposited data

Results flagged for a closer look

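The difference between the response of SPT6-AID cells and that of PAF1-AID cells at 6 h, given as log2 and tested as an interaction in edgeR's quasi-likelihood fit, passed the adjusted threshold for 1 of the 8 tested factors, 6 of the 32 list genes and 1 of the 5 tested neighbours, each lower in SPT6-AID cells, where 3.12% of all genes were. All 8 calls ended with fly reads as the library size, with edgeR adjusted p from 0.102 (CSTF2T) to 0.218 (WDR33). The log2 differences there were no smaller in size, running from -1.58 (CSTF2T) to -0.77 (OGFOD1). In edgeR's main test CSTF2T had -1.55, the poly(A) polymerase PAPOLG -1.54 and the histone mRNA binding protein SLBP -1.28. The CPSF subunits FIP1L1 and WDR33 had -1.24 and -1.19. RPRD2 had -1.12, the phosphatase subunit PPP1CC -0.80 and OGFOD1, the neighbour of NUDT21, -0.71.

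Among the genes called for this difference, SLBP and OGFOD1 lay below 0 h in one line and above it in the other. SLBP ran at 46.9% to 69.6% of the 0 h mean in the SPT6-AID libraries and at 135% to 147% in the PAF1-AID libraries. OGFOD1 ran at 78.4% to 81.2% and 128% to 134%. Some list genes not called for the difference also lay on opposite sides of 0 h at 6 h. Neither SLBP nor OGFOD1 was called higher in PAF1-AID cells by edgeR's main test. DESeq2 called OGFOD1 higher there (0.40, adjusted p = 0.0460), and the line fitted alone called SLBP (0.49, edgeR adjusted p = 0.0280). The replicate block called OGFOD1 (0.39) and SLBP (0.50) higher there (edgeR adjusted p = 0.0008 and 0.0006). With fly reads as the library size OGFOD1 stood there at 95.0% and 106%, and SLBP at a mean of 107%. The edgeR adjusted p of the difference for OGFOD1 was 0.0441 and rose above the threshold without each of the 12 libraries (0.0635 to 0.191). For PPP1CC it was 0.0470 and also rose without each library (0.0658 to 0.210). FIP1L1 and SLBP each kept the call without 6 of the 12 libraries, PAPOLG and RPRD2 without 7, and WDR33 without 1.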

How the results depend on the processing

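The limits lie in 2 libraries per group, unknown replicate origin, and scaling. Counts of called factors (of 8) were recomputed in each comparison. In SPT6-AID cells at 2 h the count of 1 became 0 with the line fitted alone, with fly totals and without the PAF1-AID libraries numbered 3, 2 with the replicate block, and 0 to 1 without single libraries. In PAF1-AID cells at 2 h the count of 1 became 0 in the same 3 settings, 3 with the block, and 0 to 1 without single libraries. At 6 h the count of 3 in SPT6-AID cells became 5 with the block. In PAF1-AID cells at 6 h the count of 2 became 5 with the block, 0 without the libraries numbered 3, and 0 to 2 without single libraries; with fly totals the 2 were PCF11 and CSTF3, both lower, in place of 1 higher and 1 lower. From 2 to 6 h the block gave 2 in PAF1-AID cells in place of 0, and in SPT6-AID cells single libraries moved the count of 2 between 1 and 2. For the difference between responses at 6 h the count of 1 became 0 with fly totals and without the libraries numbered 3, 3 with the block, and 0 to 1 without single libraries.

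Libraries with the same number deviated together (correlations of 0.745 to 0.918 across genes between groups of a line), but what a number stands for is not labelled, and no comparison has 3 pairs. With the block CPSF1 was called higher at 6 h in both lines (edgeR adjusted p = 0.0026 and 0.0058). It also called CSTF2 lower in SPT6-AID cells at 6 h, against 0 h and against 2 h. CSTF2T was called lower with it at 2 h in both lines and at 6 h in PAF1-AID cells. In PAF1-AID cells the block called CPSF6 higher at 2 h and CSTF3 lower at 6 h. It called CPSF6 and PCF11 higher there from 2 to 6 h. The block could not be applied to the comparison of the lines. The cause of these changes was not tested. No call changed sign in any setting. Fly totals moved the median of all genes by more than 0.1 on the log2 scale: it was -0.12 and -0.39 at 2 and 6 h in SPT6-AID cells and -0.22 and -0.37 in PAF1-AID cells. With them CSTF1 at 6 h was -3.41 in SPT6-AID cells, and PPP1R10 was -2.16 and -2.22 in the 2 lines.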
